A study of Homo sapiens with 9 samples.

Results

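The 9 desmosome genes DSC3, DSC2, DSG2, DSP, JUP, PKP2, PKP3, PKP4 and PERP were followed across control, knockdown and rescue libraries of LNCaP, an androgen-responsive human prostate cancer cell line. They are 9 of 60880 gene rows in each count table. The set was chosen from the measured difference of DSC3 between knockdown and control, with its partner genes of the desmosome added by name. What DSC3 and the others showed in that contrast is therefore given as a description. Where a call or adjusted p of a member is printed for it, that too is a description, and no conclusion rests on it. The choice rested on knockdown and control, and each contrast with the rescue libraries shares one of those groups.

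RNA sequencing covered 3 groups of 3 libraries: LNCaP labelled as control (NT), the same line with knockdown of UGT2B28 (KD4), and the knockdown background with UGT2B28 overexpressed (KD4OE), called rescue. UGT2B28 is a glucuronosyltransferase of a family that conjugates steroids. All samples were taken at 24 h. Puromycin at 3 µg/mL was the selection antibiotic for knockdown and G418 at 1 mg/mL for rescue; none is named for control, so construct and antibiotic cannot be told apart. Only 1 knockdown line and 1 rescue line made from it were sequenced, and the labels do not say whether the 3 libraries of a group were separate cultures. The p-values thus measure library-to-library spread alone, and that spread may be technical.

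Desmosomes are spot-like junctions that rivet neighbouring epithelial cells together. Their desmocollins (DSC) and desmogleins (DSG) are calcium-dependent cadherins that bind those of the next cell, plakoglobin (JUP) and the plakophilins (PKP) bind the cadherin tails inside the cell, and desmoplakin (DSP) ties this plaque to keratin filaments. In stratified and glandular epithelia DSC3 is mainly a cadherin of basal cells, whereas DSC2 and DSG2 are the widespread forms found also in simple and luminal epithelium.

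Gene counts summed to 20300744 to 26459528 per library. UGT2B28 itself had 25, 4 and 10 counts in control, 17, 8 and 1 in knockdown and 1124, 1554 and 1857 in rescue, so that a lower level in knockdown was not detectable at this depth (edgeR adjusted p = 0.518), and the groups are named by their labels. The LNCaP label was compared with marker genes: all 10 luminal prostate markers were above 1 CPM (counts per 1000000 of each library's TMM-adjusted total) in some library, and their levels summed to 3716 to 4001 CPM in the control libraries, 8578 to 9043 CPM in those of knockdown and 8710 to 9671 CPM in those of rescue. Of the 10, 8 were called higher in knockdown against control, as were 16.5% of all genes tested. KLK3 (mean 1428 CPM in control and 3750 CPM in knockdown) and KLK2 (125.3 and 1698 CPM) were the main part of the sum in knockdown and rescue. In control, KRT8 (mean 1012 CPM) was second to KLK3 and well above KLK2. ACP3 fell (10.0 to 3.12 CPM, edgeR adjusted p = 8.24e-08), and KRT8 was not called. Of 9 basal prostate markers, 6 stayed under 1 CPM in every library, TP63 and KRT5 among them. Of 10 fibroblast, endothelial and immune markers, 7 did, with PTPRC and CD3E at 0 in all libraries. The 10 together gave 52.1 to 78.6 CPM per library. Most of that sum was COL1A1, whose means were 68.2 CPM (control), 48.4 CPM (knockdown) and 63.2 CPM (rescue). VWF (means 2.43, 5.75 and 6.47 CPM, same order of groups) and CD68 (2.77, 3.15 and 2.61 CPM) made up nearly all of the rest. PECAM1 was also listed but was not found among the gene symbols.

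The promoters of the 3 desmocollin genes are shown first because these genes lie next to each other in the order DSC3, DSC2, DSC1 and differed in direction across the groups. Each sequence, from RefSeq (GRCh38.p14), runs from 250 bases before to 50 bases after an annotated start, 5′ to 3′ along the gene, all on the minus strand, with the CG dinucleotides in capitals; the counts themselves were made on hg19. The stretches are chr18:31042693-31042992 for DSC3, chr18:31102372-31102671 for DSC2 and chr18:31162807-31163106 for DSC1.
DSC3 promoter: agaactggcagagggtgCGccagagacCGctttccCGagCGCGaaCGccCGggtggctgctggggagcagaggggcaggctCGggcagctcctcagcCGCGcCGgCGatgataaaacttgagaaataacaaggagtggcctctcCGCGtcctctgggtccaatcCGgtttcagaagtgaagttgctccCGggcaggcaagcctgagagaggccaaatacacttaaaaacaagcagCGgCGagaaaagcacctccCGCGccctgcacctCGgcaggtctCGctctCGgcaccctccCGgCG
DSC2 promoter: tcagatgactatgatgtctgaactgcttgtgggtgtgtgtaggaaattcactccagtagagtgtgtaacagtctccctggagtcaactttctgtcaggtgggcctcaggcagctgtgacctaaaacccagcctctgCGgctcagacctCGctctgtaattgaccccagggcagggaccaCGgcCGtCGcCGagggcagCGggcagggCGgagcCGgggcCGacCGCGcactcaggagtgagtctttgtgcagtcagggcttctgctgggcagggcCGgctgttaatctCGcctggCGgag
DSC1 promoter: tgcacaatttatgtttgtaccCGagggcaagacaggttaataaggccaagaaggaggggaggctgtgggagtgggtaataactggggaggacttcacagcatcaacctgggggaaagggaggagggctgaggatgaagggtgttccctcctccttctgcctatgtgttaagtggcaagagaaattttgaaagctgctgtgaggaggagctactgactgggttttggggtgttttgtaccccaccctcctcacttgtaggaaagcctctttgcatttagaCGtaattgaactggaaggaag

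The DSC3 stretch holds 25 CG dinucleotides, the DSC2 stretch 15 and the DSC1 stretch 2. A second annotated DSC2 start has 22. Over 35116 promoters of this length the median was 14, and 32.0% had at least as many as DSC3. Among the other members the number ran from 19 at 1 of 2 JUP starts to 43 at PERP; PKP2 and PKP3 had no entry. The letters CAGGTG, searched on both strands, occur in 20.6% of all promoters and were present once in the DSC2 stretch above, 2 times each at DSG2, DSP and 1 JUP start, and not in the DSC3 stretch. The letters AGAACA, likewise on both strands, occur in 14.8% of promoters and in no member's stretch. A match is only a description of the letters.

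DSC3 was present in every control library and close to absent in all others. Its counts were 547, 403 and 442 in control, 2, 0 and 0 in knockdown, and 6, 0 and 4 in rescue. In depth-normalized terms this was 20.5, 18.7 and 20.1 CPM in control, against 0.0763, 0 and 0 CPM in knockdown and 0.294, 0 and 0.15 CPM in rescue. A count of 0 allows up to 0.126 and 0.138 CPM in knockdown replicates 2 and 3 and up to 0.12 CPM in rescue replicate 2, counting error only. No knockdown or rescue library came near the lowest control library.

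Over the 3 libraries of a group, control had 1392 DSC3 counts, knockdown 2 and rescue 10. The depth-normalized ratio of control to knockdown was 710 (exact 95% interval 196 to 5870), and that of control to rescue was 143 (77.3 to 298). Both ratios rest on a handful of reads in their denominators: the second was 256 without rescue replicate 1 and 93.3 without rescue replicate 2. Knockdown replicate 1 held both of the knockdown reads. With it left out control was at least 300-fold higher, taking 3 counts over the group as the floor, and the exact 95% interval starts at 244. Rescue against knockdown gave a ratio of 4.98 (1.06 to 46.7), from 10 and 2 counts, with overlapping libraries. With a library left out it ran from a limit of 2.11 at the same floor (interval from 1.42) to 7.61. In 4 of the 6 cases the interval reached below 1. Overexpression of UGT2B28 was thus not accompanied by a DSC3 level near that of control: the rescue mean of 0.148 ± 0.147 CPM (SD, n = 3) stood beside 19.7 ± 0.931 CPM in control. In such bulk RNA, fewer cells with a transcript and less transcript per cell cannot be told apart.

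Other basal markers moved in both directions beside DSC3. The 9 basal prostate markers summed to 22.0 to 28.6 CPM in the control libraries, 9.66 to 11.7 CPM in those of knockdown and 11.2 to 12.5 CPM in those of rescue. Of the 5 that passed the count filter, 1 was called higher and 2 lower in knockdown against control. Over all genes tested the shares were 16.5% higher and 15.6% lower. The 3 genes called are named after their values were seen. ITGB4, the integrin of hemidesmosomes, gave most of the control signal and fell from 19.3 ± 4.09 to 4.01 ± 1.18 CPM (edgeR adjusted p = 7.89e-10). The basal keratin KRT15 fell from 40 counts over the control libraries to 2, and the basal keratin KRT14 rose from 1.77 ± 0.563 to 4.11 ± 1.01 CPM. TP63, the master regulator of basal cells, had 0 counts in control, 4 in knockdown and 1 in rescue. The part of these basal genes, or of the luminal genes above, in the DSC3 difference was not tested.

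**Figure D1:**
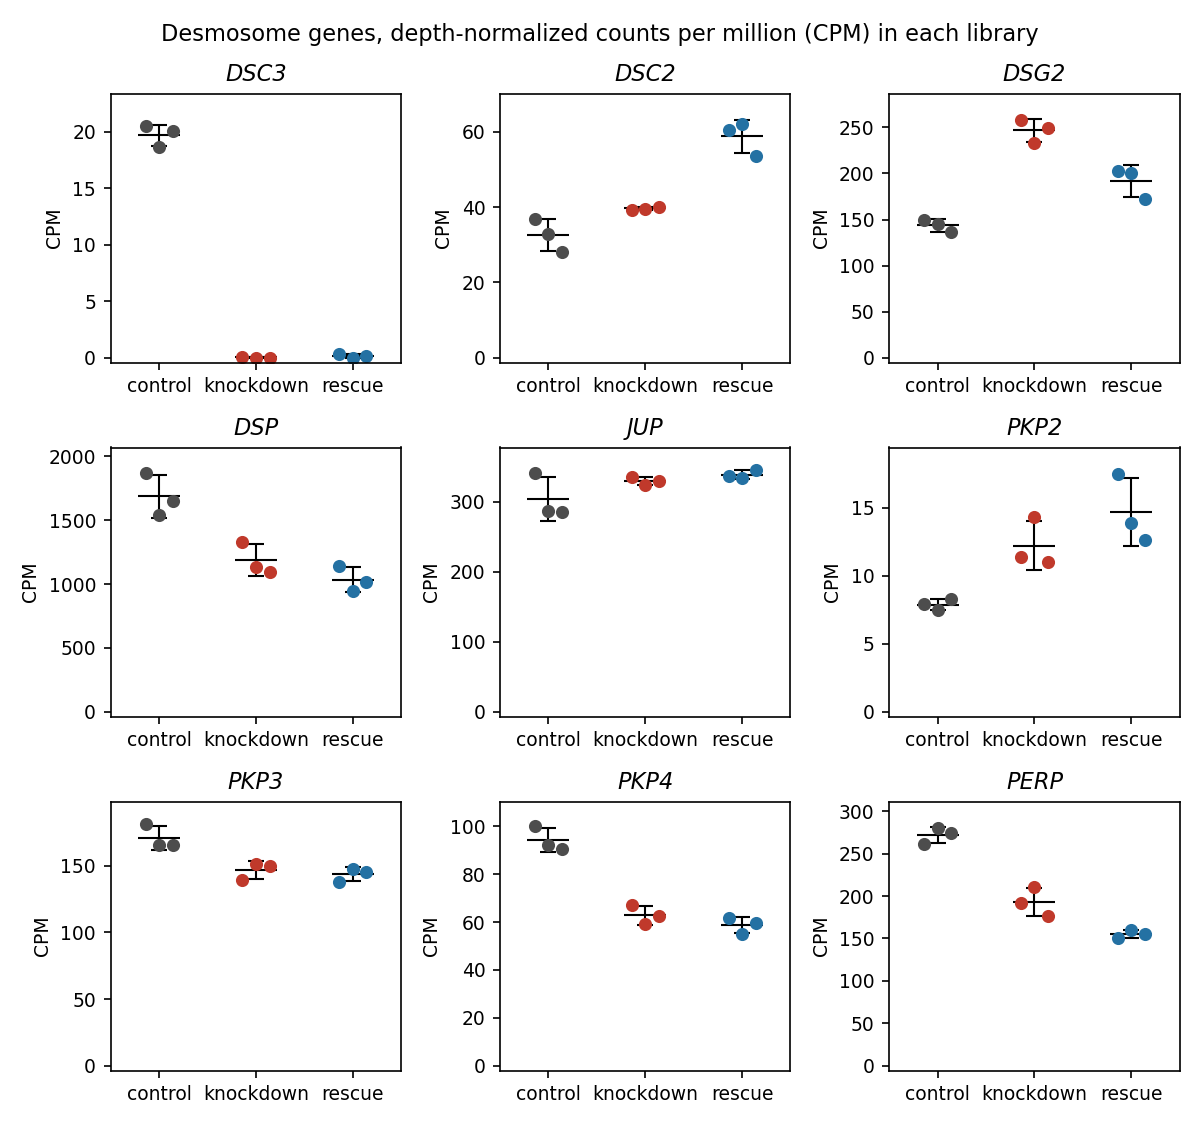
Depth-normalized counts (CPM, vertical axes from 0) of the 9 desmosome genes in each library: points are the 3 libraries of a group, horizontal marks the mean and bars ± 1 SD. DSC3 is near 0 in all knockdown and rescue libraries, DSG2 is highest in knockdown, DSC2 is highest in rescue, and JUP differs little.

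DSC2, the neighbouring desmocollin, was present in every library. DSC2 had 36.8, 32.8 and 28.2 CPM in control, 39.2, 39.6 and 40.1 CPM in knockdown and 60.6, 62.0 and 53.7 CPM in rescue. The 3 groups did not overlap, and the rescue libraries were the highest. The share of all genes whose groups do not overlap was not counted, for this or any other member. From knockdown to rescue DSC2 rose by 0.57 on the log2 scale (SE 0.098, edgeR adjusted p = 0.000212), a call kept in all 15 alternative analyses, where the adjusted p ran from 8.98e-07 to 0.00296. Against control the rescue level was higher by 0.85 (SE 0.099, adjusted p = 7e-08). The difference of knockdown from control was 0.28 (SE 0.10).

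DSC1, a desmocollin of the upper epidermis and no member of the set, was detected at trace level outside control. DSC1 had 1, 1 and 0 counts in control, 28, 4 and 41 in knockdown and 9, 15 and 5 in rescue. The depth-normalized ratio of knockdown to control was 35.8, from 73 and 2 counts (exact 95% interval 9.55 to 301), and that of rescue to control 14.1 (3.58 to 122). Without knockdown replicate 3 the first was 22.5. At 1.04 ± 0.86 CPM in knockdown, its spread between libraries was almost as large as its mean.

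The desmocollin repertoire can be compared on a scale per length, as CPM per kilobase of annotated exon. On that scale DSC3 made up 49.6, 50.2 and 55.7% of the desmocollin level in the control libraries, with DSC2 at 50.3, 49.6 and 44.3%. In knockdown DSC2 held 92.3, 98.8 and 87.9% and DSC1 nearly all of the rest. In rescue DSC2 held 97.1, 97.2 and 98.5%. Summed over the 3 genes, the level was 5.41 ± 0.392 CPM per kb in control, 3.42 ± 0.222 in knockdown and 4.82 ± 0.401 in rescue (SD, n = 3). The rescue sum, made almost wholly of DSC2, lay above every knockdown library and just below the lowest control library. The nearest rescue and control libraries had 5.1 and 5.11 CPM per kb. That order depends on the division by length, as the annotated exons span 12495 bases for DSC2 and 7056 for DSC3. In CPM, mean DSC2 was 58.8 in rescue, while control had 32.6 for DSC2 and 19.7 for DSC3. Without the division, the mean sum was thus higher in rescue than in control, and libraries of these groups overlapped.

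Desmoglein 2, the partner cadherin at the far end of the same gene cluster, was highest in knockdown. DSG2 had 149.7, 145.5 and 136.2 CPM in control, 257.7, 233.4 and 249.6 CPM in knockdown and 202.8, 200.3 and 172.1 CPM in rescue. The groups did not overlap, with rescue between the others. DSG2 fell from knockdown to rescue by 0.37 on the log2 scale (SE 0.075, edgeR adjusted p = 0.00134), with an adjusted p of 0.00015 to 0.026 over the 15 alternatives. Against control, rescue DSG2 was still higher by 0.41 (SE 0.075, adjusted p = 6.12e-05). Knockdown stood above control by 0.78 (SE 0.075).

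An antisense gene, DSG2-AS1, shares 171 exonic bases with DSG2, and as the strand setting of the counting is not given in the sources used here, reads of the 2 genes cannot be fully told apart. DSG2-AS1 had 218, 206 and 157 counts in control, 414, 271 and 311 in knockdown and 317, 298 and 290 in rescue, far fewer than DSG2. It was higher than control in knockdown by 0.74 on the log2 scale (SE 0.165, adjusted p = 0.000864) and in rescue by 0.62 (SE 0.17, adjusted p = 0.0036), the same directions as DSG2, and was not called in rescue against knockdown (log2 fold change −0.12, SE 0.16, adjusted p = 0.736).

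DSG1, the desmoglein of the upper epidermis, had 0 counts in all control libraries, 14, 7 and 15 in knockdown and 24, 2 and 4 in rescue. With 3 counts over the control group as the floor, knockdown was at least 11.8-fold higher than control; the exact 95% interval of the ratio to the 0 control counts starts at 9.08. Without a library the limit for knockdown ran from 7.29, with control replicate 1 left out, to 14.2. For rescue the same limit was 9.76 (interval from 7.46), but rescue replicate 1 held 24 of the 30 counts, and without it the limit was 2.72 (interval from 1.6); without control replicate 1 it was 6.05. DSG3 had 0 to 2 counts in any library, DSG4 had none, and the plakophilin PKP1 of stratified epithelium had 0 to 16. DSG2 was therefore at least 99.3% of the desmoglein level per kb in each library.

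The main cadherins DSG2 and DSC2 stood in a different balance in each group. The ratio of DSG2 to DSC2 in CPM per kb was 8.21, 8.96 and 9.74 in control, 13.3, 11.9 and 12.6 in knockdown and 6.75, 6.52 and 6.47 in rescue. No group overlapped another, and rescue lay below control. With 3 libraries against 3, the two-sided exact permutation test cannot go below 0.1, which is what each of the 3 comparisons gave.

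**Figure D2:**
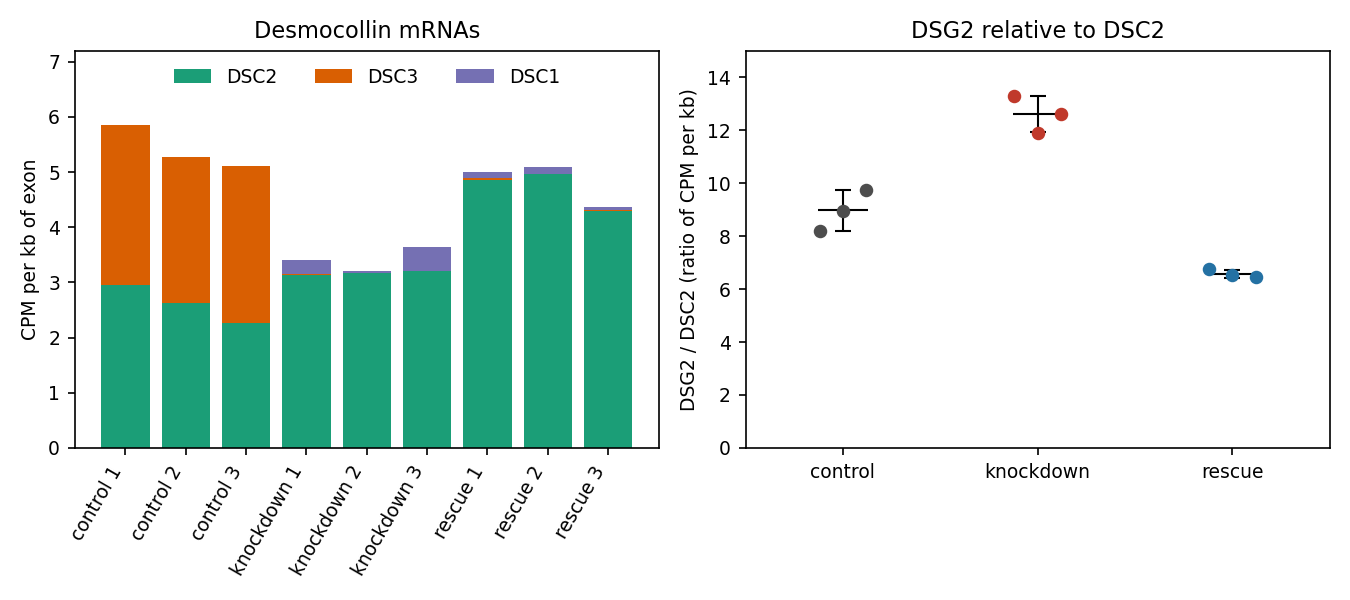
Left, desmocollin level in each library (CPM per kb of exon, stacked bars from 0, one colour per gene): DSC3 is about as high as DSC2 in the 3 control libraries and at most a thin sliver in the others. Right, ratio of DSG2 to DSC2 in CPM per kb (points are libraries, marks and bars the mean ± 1 SD): knockdown is highest and rescue lowest.

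The cadherin genes form 1 cluster on chromosome 18, so the genes around it were examined by position, 6 protein-coding genes on each side in annotation order. On the side of DSC3, CDH2, CHST9 and PSMA8 had at most 5 counts in a library and AQP4 at most 9. The nearest expressed gene on that side, the BTB protein gene KCTD1, had mean levels of 14.3 ± 2.05 CPM (control), 14.5 ± 0.849 CPM (knockdown) and 16.9 ± 2.56 CPM (rescue), with no call, and TAF4B was not called either. On the side of DSG2, B4GALT6, a galactosyltransferase of glycolipid synthesis, had 4.37 ± 0.115 CPM in the control libraries, rose to 8.13 ± 0.241 CPM with knockdown (by 0.89 on the log2 scale, SE 0.18, edgeR adjusted p = 0.000228) and had 7.91 ± 0.396 CPM with rescue. The ubiquitin ligase RNF138 rose from 32.6 ± 2.62 to 46.2 ± 4.76 CPM and fell back to 36.5 ± 2.45 in rescue (log2 fold change −0.34 against knockdown, SE 0.10, adjusted p = 0.0273). TRAPPC8, of a vesicle tethering complex, had 47.5 ± 1.67 CPM in the control libraries, rose to 55.8 ± 1.88 CPM with knockdown (adjusted p = 0.0351) and had 47.4 ± 0.566 CPM with rescue. RNF125, another ubiquitin ligase, was not called in any contrast (log2 fold change −0.35 in knockdown and −0.34 in rescue, both against control). SLC25A52 had no count, and TTR at most 13 in a library.

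**Figure D3:**
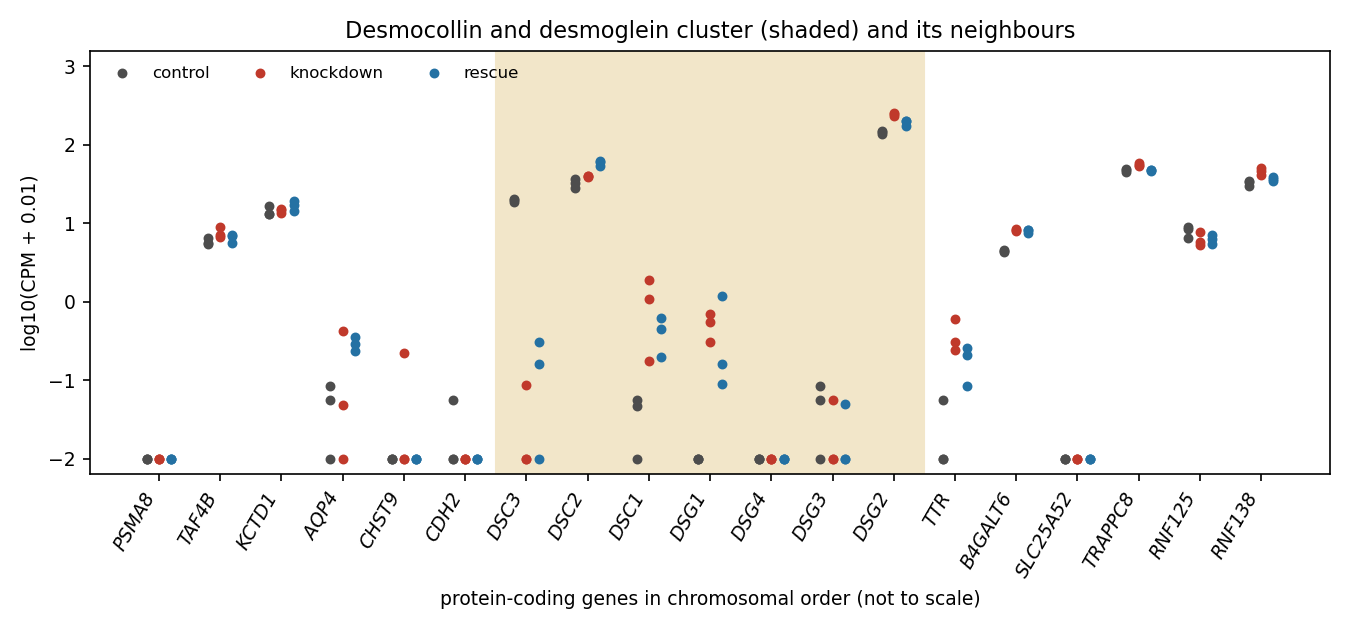
Level of the 7 desmosomal cadherin genes (shaded) and 6 protein-coding neighbours on each side, as log10(CPM + 0.01), in chromosomal order and not to scale; each point is a library, and points at −2 are libraries with no count. DSC3 drops to near 0 counts in knockdown and rescue while DSC2 beside it and DSG2 at the other end stay high.

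Of the plaque genes, DSP, PKP3 and PKP4 were lower in both other groups than in control, PKP2 was higher, and JUP was not called with all libraries in any contrast. DSP, the largest member by level per kb of exon too, had 1870, 1540 and 1654 CPM in control, 1330, 1135 and 1095 CPM in knockdown and 1139, 949.1 and 1019 CPM in rescue. Every control library lay above every other library, while knockdown and rescue overlapped. The difference of knockdown from control was −0.51 (SE 0.089). From knockdown to rescue DSP differed by −0.20 on the log2 scale (SE 0.089, adjusted p = 0.179), and against control the rescue level was lower (log2 fold change −0.70, SE 0.09, adjusted p = 3.32e-07).

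JUP links both kinds of cadherin to DSP. JUP had 340.2, 286.1 and 285.4 CPM in control, 334.9, 323.8 and 329.7 CPM in knockdown and 335.9, 333.4 and 345.5 CPM in rescue. All groups overlapped. Its log2 fold change was 0.04 (SE 0.074, adjusted p = 0.827) in rescue against knockdown and 0.15 (SE 0.074, adjusted p = 0.103) in rescue against control. Control replicate 1 was the highest control library, and without it the second value was 0.244 (adjusted p = 0.00698, against 0.00698 to 0.345 over the 15 alternatives). The difference of knockdown from control was 0.12 (SE 0.074), and without control replicate 1 it was 0.202 and past the threshold.

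The plakophilins, armadillo proteins that gather cadherins and DSP into the plaque, went in different directions. PKP2, the form of heart and simple epithelium, had 212, 161 and 182 counts in control, 298, 339 and 238 counts in knockdown and 357, 347 and 337 counts in rescue, or 7.89 ± 0.399 CPM, 12.2 ± 1.8 CPM and 14.7 ± 2.53 CPM in that order (SD, n = 3). PKP3, found in most desmosomes, had 181.4, 165.8 and 165.8 CPM in control, 139.0, 151.6 and 149.7 CPM in knockdown and 138.1, 147.9 and 145.7 CPM in rescue. PKP4 (p0071), which is shared with adherens junctions, had 99.9, 92.3 and 90.4 CPM in control, 67.0, 59.1 and 62.6 CPM in knockdown and 61.6, 55.2 and 59.6 CPM in rescue. For each of the 3 genes the control libraries stood apart, below the rest for PKP2 and above the rest for PKP3 and PKP4. Knockdown and rescue overlapped. How common such a separation is among all genes was not counted.

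In rescue against knockdown none of the 3 plakophilins was called. The log2 fold change of PKP2 was 0.26 (SE 0.15, adjusted p = 0.317), that of PKP3 −0.03 (SE 0.071, adjusted p = 0.872) and that of PKP4 −0.10 (SE 0.082, adjusted p = 0.532). Against control, rescue was higher for PKP2 by 0.89 (SE 0.16, adjusted p = 3.87e-05) and lower for PKP3 and PKP4, with log2 fold changes of −0.25 (SE 0.071, adjusted p = 0.00608) and −0.68 (SE 0.082, adjusted p = 1.07e-07). The differences of knockdown from control were 0.63 (SE 0.16) for PKP2, −0.22 (SE 0.071) for PKP3 and −0.58 (SE 0.081) for PKP4. PKP4 shares exonic bases with its antisense gene PKP4-AS1, which had 101 to 234 counts per library, so the same limit on strand holds. Per kb, PKP3 made up 80.3 ± 0.126% of the plakophilin level in control, 82.2 ± 1.26% in knockdown and 82.1 ± 1.66% in rescue.

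PERP, a small tetraspan membrane protein of desmosomes and a known target of p63, was lower in knockdown than in control and lowest in rescue. PERP had 261.0, 280.0 and 274.9 CPM in control, 192.2, 210.3 and 176.5 CPM in knockdown and 150.9, 159.8 and 154.9 CPM in rescue, with no overlap between any 2 groups. It fell from knockdown to rescue by 0.31 on the log2 scale (SE 0.073, edgeR adjusted p = 0.00452). That call was lost without knockdown replicate 2, the highest of its group, where the adjusted p was 0.0521, the upper end of the range from 0.000905 over the 15 alternatives. Against control, PERP in rescue was lower (log2 fold change −0.81, SE 0.073, adjusted p = 4.87e-10), and knockdown differed from control by −0.49 (SE 0.073).

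**Figure D4:**
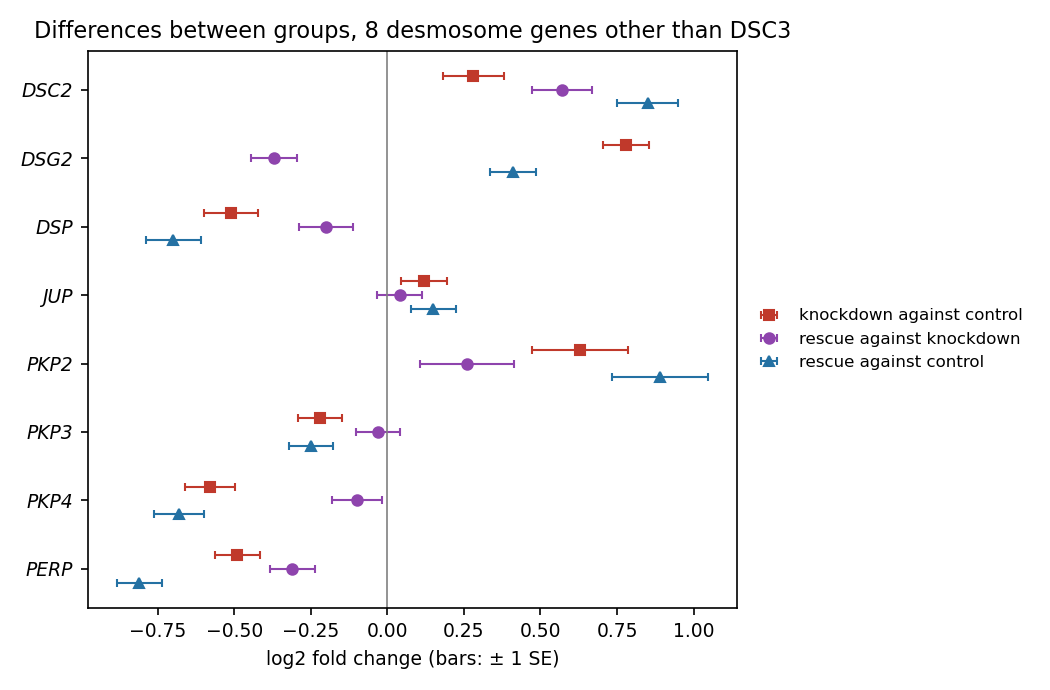
Log2 fold changes of the 8 members other than DSC3 in the 3 contrasts (horizontal axis, bars ± 1 SE from edgeR; squares, circles and triangles as in the key). In rescue against knockdown (circles) DSC2 is clearly above 0 and DSG2 and PERP below it, while JUP, PKP3 and PKP4 lie near 0.

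All 9 members passed the filter on low counts, DSC3 through its control libraries alone. In rescue against knockdown 3 of the 9 were called (edgeR adjusted p under 0.05), against 10.1% of all 18389 genes tested. DSC2 was called higher, as were 5.2% of all genes, and DSG2 and PERP lower, as were 4.88%. In rescue against control 8 were called, against 37.8% of all genes, with 3 higher (19% of all genes) and 5 lower (18.8%); this count includes DSC3, whose difference was in view when it was chosen. In knockdown against control 8 were past the same threshold, 3 higher and 5 lower, where 32.1% of all genes were called, 16.5% higher and 15.6% lower. Nothing is read from that last count. The contrasts share libraries pairwise, so agreement between them is not independent. The median log2 fold change of the 8 members without DSC3 was −0.05, −0.06 and −0.05 in knockdown against control, rescue against knockdown and rescue against control, beside 0.01, −0.005 and −0.003 over all genes tested.

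Ordered by level per kb of exon in control, the members ran from DSP (167.2 ± 16.6 CPM per kb) over PERP (63.4 ± 2.29), JUP (61.5 ± 6.36), PKP3 (45.1 ± 2.37), DSG2 (23.2 ± 1.11) and PKP4 (9.89 ± 0.524) to DSC3 (2.8 ± 0.132), DSC2 (2.61 ± 0.342) and PKP2 (1.12 ± 0.0567). The ranges of PERP and JUP overlapped, as did those of DSC3 and DSC2, and all other neighbours in this order were apart. In knockdown DSC3 was last. There JUP was second, and PERP at 45.0 ± 3.94, DSG2 at 39.9 ± 2.0 and PKP3 at 38.8 ± 1.8 followed, with overlap of PERP with DSG2 and of DSG2 with PKP3. In rescue PKP3 and PERP (38.0 ± 1.36 and 36.2 ± 1.04) overlapped, above DSG2 at 31.0 ± 2.75. With the longest protein-coding transcript as length, an alternative chosen after the data were seen, JUP came before PERP in control and PKP3 came before PERP and DSG2 in knockdown.

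The rest of the cell's junction machinery was described from lists. Each count of called genes stands beside 5.2% higher and 4.88% lower over all genes in rescue against knockdown, and 16.5% higher and 15.6% lower in knockdown against control, and no test was made of a list against those shares. The next list held plakins, which tie desmosomes and hemidesmosomes to filaments, and envelope partners. Of these 6 genes, 1 was higher and 0 lower in rescue against knockdown (median log2 fold change 0.14). The one called was periplakin, PPL, at 2.31 ± 0.631 CPM in knockdown and 4.73 ± 1.43 in rescue (edgeR adjusted p = 0.0226). In knockdown against control 1 of the 6 was higher and 3 were lower (median −0.47). Of 4 simple keratins tested, the filaments to which DSP attaches, 0 were higher and 1 lower in rescue against knockdown (median 0.03): KRT8 fell from 1063 ± 79.4 to 872.0 ± 42.5 CPM (adjusted p = 0.0135).

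Adherens junction genes, the classical cadherin system beside desmosomes, had no call in rescue against knockdown among 11 tested (median 0.05). In knockdown against control 1 was higher and 5 were lower (median −0.30). NECTIN2, an immunoglobulin-like adhesion protein, fell from 75.9 ± 6.11 to 48.6 ± 1.72 CPM (adjusted p = 6.75e-07), and AFDN, the afadin that links nectins to actin, from 102.5 ± 4.19 to 66.8 ± 5.18 CPM (adjusted p = 3.45e-06). CDH1, the E-cadherin gene, chosen after its values were seen, was the one called higher, with 463.5 ± 44.7 CPM in control and 536.5 ± 45.1 in knockdown (adjusted p = 0.0432).

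Of 13 tight junction genes tested, 0 were higher and 3 lower in rescue against knockdown (median 0.06). The claudin CLDN4 had 458.6 ± 34.6 CPM (control), 807.2 ± 50.7 CPM (knockdown) and 595.7 ± 21.8 CPM (rescue), with rescue lower than knockdown (log2 fold change −0.44, SE 0.076, adjusted p = 0.00022). Cingulin, CGN, and occludin, OCLN, fell from knockdown to rescue with log2 fold changes of −0.49 and −0.30. In knockdown against control 3 were higher and 4 lower (median −0.09).

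Among 10 genes for desmosome assembly, kinases and shedding, 0 were higher and 2 lower in rescue against knockdown (median −0.01). PRKCA, the protein kinase C alpha known to weaken desmosomes, had 64.2 ± 4.18 CPM (control), 36.8 ± 6.39 CPM (knockdown) and 28.1 ± 2.32 CPM (rescue), a fall at both steps (adjusted p = 8.77e-07 and 0.0191). The methyltransferase PRMT1 fell from 170.8 ± 16.8 to 143.4 ± 9.11 CPM. Of 16 transcription factors of epithelial junction genes tested, 0 were higher and 4 lower in rescue against knockdown (median −0.17). Those named here are ELF3, an epithelial ETS factor, which fell from 338.3 ± 22.5 to 183.0 ± 10.3 CPM (adjusted p = 1.05e-09), TWIST1, from 14.6 ± 1.81 to 10.0 ± 1.9 CPM, and KLF5, from 1.89 ± 0.688 to 0.667 ± 0.375 CPM. In knockdown against control 5 were higher and 3 lower (median 0.17).

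The genes whose pattern was most like that of DSC3 were ranked by Pearson's r of log2(CPM + 1) over the 9 libraries, among 12004 named genes that averaged 5 CPM or more in at least 1 group. They were DNAAF11 (r = 0.9970), FRAS1 (0.9966), PDE10A (0.9963), TUFMP1 (0.9962), VGLL4 (0.9948) and FGFRL1 (0.9934). Such values follow largely from 1 step between control and the other 6 libraries, and the sizes differed: VGLL4 had 316.4 ± 5.06 CPM in control and 176.5 ± 1.98 CPM in knockdown, FRAS1 22.6 ± 0.161 CPM and 0.128 ± 0.117 CPM. For DSC2, the member that differed most between rescue and knockdown apart from DSC3, the most alike were PIK3R3 (r = 0.9888), PTMS (0.9750), PFKP (0.9740), C9orf64 (0.9722), DDR1 (0.9710) and SLC25A15 (0.9682). All libraries share depth scaling, and these values carry no test.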

How the data were processed

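For each LNCaP library the authors deposited a table of raw read counts over 60880 genes. HTSeq, HISAT2, cutadapt and FastQC are the tools that the submitters' processing notes list, and hg19 the build, with versions, annotation release and strand setting not given in the sources used here. The HTSeq summary rows (57.08% to 59.7% of the reads) were left out. Symbols were matched by Ensembl gene ID without its version (56373 rows). Exon lengths, overlaps and gene order came from GENCODE v29 (GRCh38), with no conversion of coordinates.

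Counts were fitted in R 4.3.3 with edgeR 4.0.16: filterByExpr with a minimum count of 10 (18389 genes), TMM scaling, and a robust quasi-likelihood fit with 1 mean per group over 9 libraries (6 residual degrees of freedom). Adjusted p-values are Benjamini-Hochberg over all genes tested, with calls under 0.05. CPM is counts per 1000000 of the TMM-adjusted library size. Each SE was obtained from the fold change and its F statistic (|log2 fold change| / √F). Intervals and floors (3 counts) cover counting error only. The scripts were tested on simulated data. Alternatives, run for the members, were DESeq2 1.42.0, limma 3.58.1 (voom), RLE scaling, no filter, only the 2 groups compared, the replicate number as a term, and each library left out. Replicates of a group differed by more than sampling noise.

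The members and gene lists were chosen with earlier results of these data known. Named genes are the members, other desmosomal cadherins and plakophilins, overlapping genes, 6 neighbours a side, up to 4 genes per list with the smallest adjusted p in rescue against knockdown (or, with no call there, in knockdown against control) and the 6 most alike; for some lists fewer are named, and some listed genes are not reported here. Of the marker lists not described in the results, neuroendocrine genes had CHGB at 0 in all libraries and summed to 1097 to 1207 CPM (control), 686.7 to 816.6 CPM (knockdown) and 1150 to 1184 CPM (rescue), nearly all from ENO2, and keratinocyte genes summed to 23.8 to 45.6 CPM, mostly KRT10.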

Additional observations from a re-analysis of the deposited data

How the results depend on the processing

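Counts of members called against control include DSC3, which was chosen for its difference between knockdown and control. Nothing is read from the count in knockdown against control. The number of members called stayed within 1.5 times its main value in every alternative run, a margin that 2 or 4 calls beside 3 do not exceed. When each library was left out in turn it was 6 to 8 in knockdown against control (main 8), 2 to 3 in rescue against knockdown (main 3) and 8 to 9 in rescue against control (main 8). The depth-normalized ratio of DSC3 in control to knockdown ran from 300 to 728 in the same way, 300 being a lower bound without knockdown replicate 1. The sign of a member's log2 fold change turned in 2 cases, both for PKP3 in rescue against knockdown, where it was 2.05e-05 without knockdown replicate 2 and 0.000211 without rescue replicate 1, within a range of −0.067 to 0.000211 when each library was left out; the cause was not tested. In knockdown against control DSC2 was past the threshold in the main analysis (adjusted p = 0.0311) but not in 6 of its 15 alternatives, with an adjusted p of up to 0.21 without control replicate 3, and PKP3 was not in 2 of 15 (up to 0.0941 without knockdown replicate 1). With the replicate number as a block, 4 members were called in rescue against knockdown, DSP being added (log2 fold change −0.196, adjusted p = 0.048, against 0.048 to 0.593 over the alternatives), and over all genes 2319 in place of 1854. Deviations of same-numbered libraries correlated at −0.031 to 0.157, and those of differently numbered libraries at −0.151 to 0.13. Not every library correlated best with its own number. Whether same-numbered libraries share more than a number is not settled by these values. Leaving out libraries for the other count ratios of DSC3, DSC1 and DSG1 was chosen after seeing the data. Trace genes such as DSC1 and DSG1 are limited by depth.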
